A study of Mus musculus with 8 samples.

Results

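The m6A peaks called in Mettl3 knockout hepatic stellate cells of the mouse are described here, as the signal that an antibody against m6A still enriched in cells made to lack METTL3. All peaks of the authors' list for the knockout (cKO, m6A immunoprecipitate over input) were taken, 6709 of the 15106 peaks in the 2 deposited lists, and they lay in 4300 gene names. The study holds 8 samples in 4 groups of 2: anti-m6A immunoprecipitate and input of cells labelled HSC-specific Mettl3-knockout, and anti-m6A immunoprecipitate and input of WT control cells. The mice were C57BL/6J, and all groups were primary stellate cells kept in culture for 7 days, a step after which quiescent cells turn into matrix-producing myofibroblasts. The sources used here do not give the driver that makes the knockout specific to stellate cells, the ages of the mice or whether replicates came from separate animals. From 100 µg of total RNA, fragments of 100 to 200 nt were precipitated and read as 150-bp paired ends. The control samples enter no value below.

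N6-methyladenosine is a methyl mark placed on adenosines inside RNA. METTL3, with its partner METTL14 and adaptors such as WTAP, writes most of it in messenger RNA, mainly at the motif DRACH and mostly near stop codons, in long internal exons and in 3' UTRs. Other enzymes make the same or a closely related mark on fewer RNAs: METTL16 on U6 small nuclear RNA and hairpins of the Mat2a 3' UTR, METTL5 and ZCCHC4 on ribosomal RNA, and PCIF1 on a capped adenosine at the transcript start (m6Am), which m6A antibodies also bind.

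The list gives 1 fold enrichment for each peak from a pooled call, with no value for either replicate. The spread between replicates is therefore unknown, no difference was tested, and intervals cover counting error only. The fold was read here as immunoprecipitate over input, which the file headers do not spell out. Depth is unknown too. A peak needs both a transcript abundant enough to be read and enrichment, so a gene without a peak is not shown to be unmethylated. The list holds no expression value, so loss of Mettl3 in these libraries could not be checked. It holds no peak on Mettl3, Mettl14 or Wtap.

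Of 14 stellate markers 11 had a peak, where 18.1% of all coding genes in RefSeq had one. Best folds were 78.0 for the transcription factor Hand2, 62.9 for Timp1, 56.1 for Col1a1, 41.6 for Colec11 and 18.3 for Pdgfrb. They were lower in Lhx2 (11.8), Des (11.0), Acta2 (9.75), Rgs5 (6.99), Reln (5.52) and Hgf (2.86), and Lrat, Ngfr and Vim had no peak. None of 10 hepatocyte markers had a peak (interval 0 to 30.8%, which includes 18.1%). A peak was called on 1 of 10 Kupffer cell markers (Cd68, fold 6.99) and on 1 of 6 cholangiocyte markers (Krt19, 11.4), counts too small to be set apart from the share of all coding genes. Liver endothelial markers had peaks on 4 of 10 (12.2 to 73.8%, which also includes 18.1%). Cdh5, the cadherin of endothelial junctions, carried 3 peaks with folds of 136, 102 and 73.2, and Pecam1 reached 46.3, Eng 19.1 and Lyve1 11.4. The part of endothelial RNA in the list was not tested.

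Coding sequence held more peaks than all other classes together. The authors' annotation put 3586 peaks in coding sequence (CDS), 53.5% of the list (exact Clopper-Pearson 95% interval 52.2 to 54.6%), and 1605 in 3' UTRs (23.9%, 22.9 to 24.96%). A further 1002 peaks (14.9%, 14.1 to 15.8%) lay in exons with no finer class, called other exon below, and 507 (7.56%, 6.94 to 8.22%) in 5' UTRs. Only 6 peaks were assigned to a start codon and 3 to a stop codon. Those small counts depend on how a class was given, because the authors place each peak by 1 position. That position fell within 2 nt of the middle of the widest exon block in 3015 of 3254 peaks of more than 1 block (92.7%), so a wide peak across a stop codon is counted as CDS or 3' UTR.

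Peaks across exon junctions were commonest in CDS. Of all peaks, 3254 (48.5%, 47.3 to 49.7%) were built of more than 1 exon block. The share was 69.0% in CDS, 55.0% in 5' UTRs, 36.2% in other exons and 8.41% in 3' UTRs. Peaks of 3 or more blocks made up 35.9% of the CDS class, 17.0% of the 5' UTR class, 13.3% of other exons and 2.87% of 3' UTR peaks. Summed exonic width had a median of 240 nt in CDS, 209 nt in 5' UTRs, 207.5 nt in other exons and 181 nt in 3' UTRs. Of the 1-block peaks 89.9% had a width within 1 nt of a multiple of 30 nt, so widths come in steps. In 1-block 3' UTR peaks the median distance to the annotated end of the gene was 524.5 nt (438 to 635 nt, n = 1418), and 43.4% lay within 300 nt of it.

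**Figure D1:**
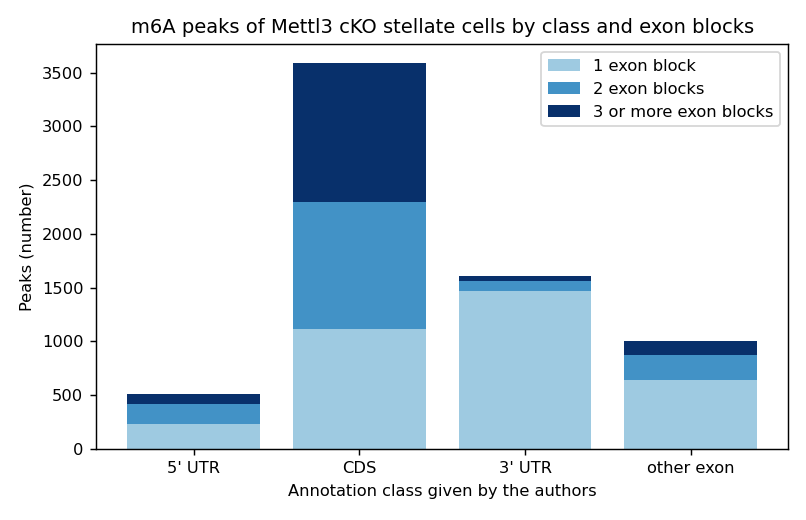
Number of peaks in the Mettl3 cKO list by the authors' annotation class (horizontal axis), with bars divided by the number of exon blocks in a peak. CDS peaks are split almost evenly among 1, 2 and 3 or more blocks (1113, 1187 and 1286 peaks), while 1470 of the 1605 3' UTR peaks have 1 block.

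Fold enrichment differed little by class and more by the number of blocks. The median fold over the list was 13.2 (95% interval of the median from order statistics 13.1 to 13.6), with quartiles of 8.09 and 26.8 and extremes of 1.22 and 3260. By class the median was 14.7 in 5' UTRs (13.2 to 16.2), 14.0 in CDS (13.5 to 14.5), 12.9 in other exons (12.1 to 13.2) and 12.1 in 3' UTRs (11.8 to 12.9). A fold of 50 or more was reached by 804 peaks (11.98%), made up of 13.7% of CDS, 13.4% of 5' UTR, 11.7% of other exon and 8.04% of 3' UTR peaks. Peaks of 3 or more blocks had a median of 20.2 (19.0 to 21.9), against 12.2 for 2 blocks and 12.1 for 1 block. In 5' UTRs the median was 18 (15.8 to 20.8) for peaks of more than 1 block and 12.1 (10.7 to 13.2) for 1-block peaks. Among 1-block peaks the 4 classes were close to level, from 11.8 in CDS to 12.1 in each of the others. Wider peaks had higher folds (Spearman's rho 0.56 across 6709 peaks, which share libraries and are not replicates), and rho between fold and block number was 0.19.

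**Figure D2:**
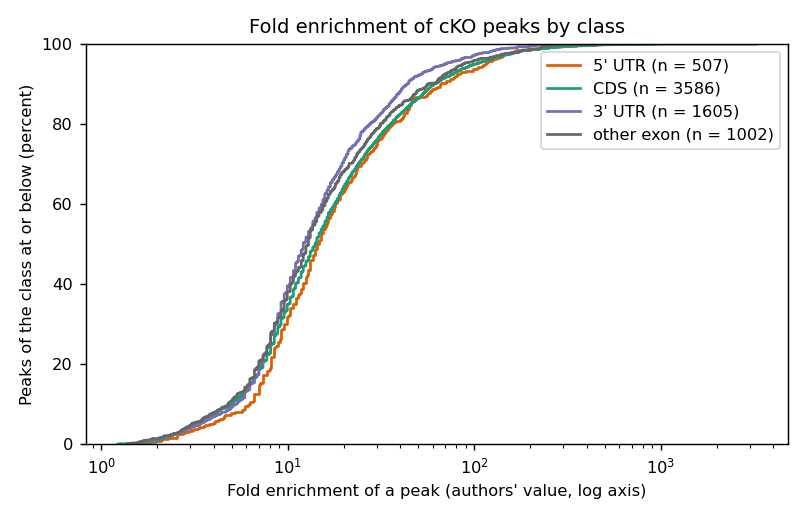
Percent of peaks of each class at or below a given fold enrichment (log axis) in the Mettl3 cKO list, 1 line per annotation class. The lines run close together around medians of 12.1 to 14.7, with the 3' UTR line highest on the right, where 8.04% of its peaks have a fold of 50 or more.

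Many low folds stood on even steps. Of 2429 peaks with a fold below 10, 1326 (54.6%, 52.6 to 56.6%) had a value within 0.0055 of a whole multiple of 0.3678, where evenly spread values would give 2.99%. The step was chosen from these same values as the one that held the largest share of them. The 2.99% applies to a step set beforehand. The commonest values were 8.09 (147 peaks), 8.46 (123 peaks) and 9.19 (119 peaks), which are 22, 23 and 25 steps. The share on a step was 60.6% in 5' UTRs, 58.8% in 3' UTRs, 55.9% in other exons and 51.2% in CDS. It was 37.8% in peaks of 3 or more blocks and 0 of 12 on the mitochondrial chromosome. The remaining low folds lay between the steps. Folds of 10 or more were not examined for steps, so the pattern is not shown to end there. What it means for folds compared between genes was not tested.

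**Figure D3:**
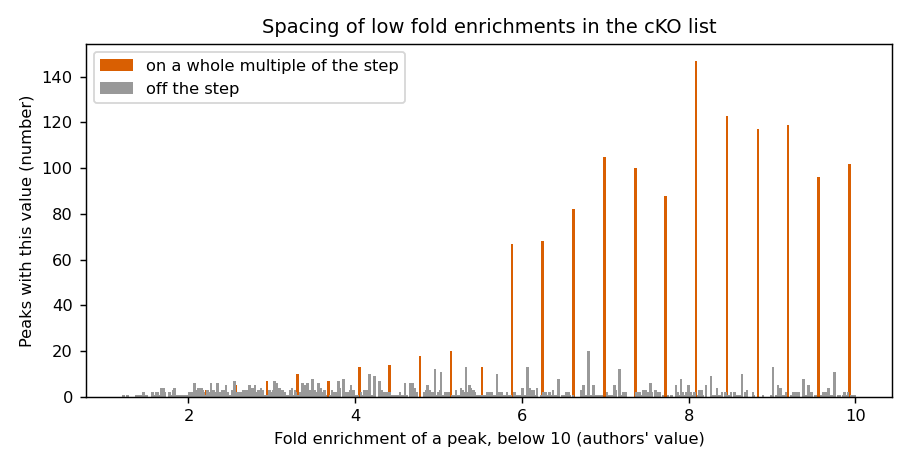
Number of Mettl3 cKO peaks (vertical axis) at each fold enrichment below 10 (horizontal axis), with values on a whole multiple of 0.3678 in orange and others in grey. The orange values stand at even distances and reach 147 peaks at a fold of 8.09.

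Most genes had 1 peak, and genes with several varied in how far their strongest peak stood above the next. Of the 4300 gene names 2783 (64.7%) had 1 peak, 987 had 2, 336 had 3, 107 had 4 and 87 had 5 or more. The median of each gene's best fold was 16.5 (15.8 to 16.9) over all genes. It was 12.5 for genes with 1 peak, 24.3 with 2, 34.8 with 3, 43.8 with 4 and 57.0 with 5 or more. A best value over more peaks is higher by its nature, and the weakest peak had medians of 9.19, 8.09, 6.62 and 6.07 for genes with 2, 3, 4 and 5 or more. In genes with more than 1 peak the best fold was a median of 2.25 times the next, with quartiles of 1.42 and 4.26. Skil had peaks of 73.9 in its CDS and 73.9 in its 5' UTR, while Tpm1 had 399 beside 2.73. CDS alone was marked in 1813 genes (42.2%), 3' UTR alone in 802, CDS with 3' UTR in 396 and 5' UTR alone in 203. All 3 of 5' UTR, CDS and 3' UTR were marked in 58 genes.

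Genes with the most peaks encode giant proteins with long coding sequences. After peaks at the same place were counted once, the nuclear pore basket protein Tpr had 11 peaks, the Golgi tether Golgb1 and the cytolinker Macf1 10 each, the cytolinker Dst 9, and Ahnak, Baz2b, Bptf and the endocytic receptor Lrp1 8 each. Every peak of Tpr, Golgb1, Macf1, Dst and Bptf was in CDS. All 11 Tpr peaks crossed an exon junction, with folds from 6.80 to 95.6. In Golgb1 1 of 10 peaks did, and 9 of its peaks stood side by side in long exon stretches on mouse chromosome 16 (fold 2.23 to 89.0), below the junction peak of 136. Ahnak, which has most of its code in 1 exon, had 8 peaks of 1 block each with a median fold of 5.73 and a best of 19.9, the lowest best value of the 8 genes.

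**Figure D4:**
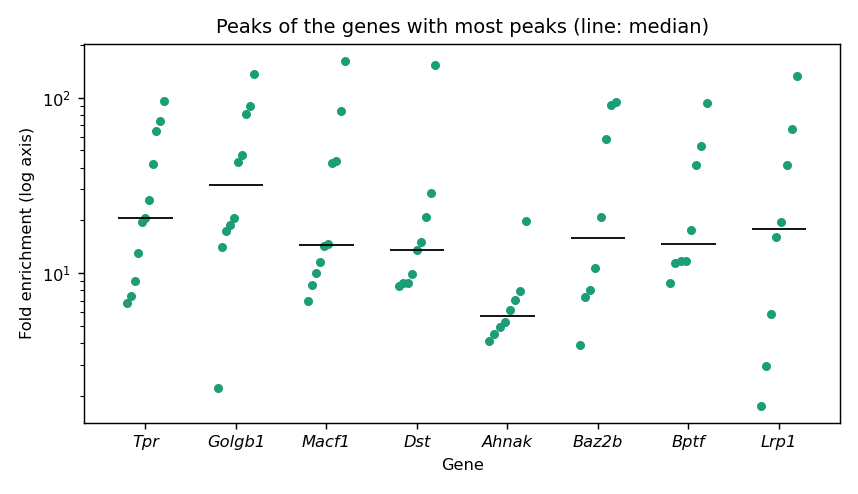
Fold enrichment (log axis) of every peak in the 8 genes with the most peaks in the Mettl3 cKO list, 1 point per peak and a line at the median of the gene. Golgb1 has the highest median (31.8) and Ahnak the lowest (5.73), and in Dst 1 peak at 153 stands above the rest.

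The strongest peaks lay in genes of chromatin, RNA processing, the cytoskeleton and vesicle traffic. Rock1, the kinase that drives actomyosin contraction, had a CDS peak of 16 blocks and 2033 nt, the widest of the list, at a fold of 1020 (mm10, chr18:10079146-10116846, minus strand), and a second peak at 22.8. The SR-related gene Pnisr (914, 75.4 and 6.25) and the nuclear cyclophilin gene Ppig (914, in 6 blocks at chr2:69736147-69750476, plus strand) followed. Nsa2, a factor of large ribosomal subunit assembly, reached 798, the remodeller subunit Smarcc1 737 and 43.0, the GTPase gene Rab8b 608 and the tropomyosin gene Tpm3 561, 33.5 and 8.13. In each of these genes with several peaks 1 peak exceeded the next by more than 10-fold.

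The 2 highest values of all were at 1 place. Ube2l3, which encodes a ubiquitin-conjugating enzyme, had a fold of 3260 on the minus strand of the mm10 build (chr16:17160026-17201577, in 3 blocks), and its convergent neighbour Ydjc had a 3' UTR peak of 3200 on the plus strand (chr16:17160044-17160372). The peaks share 133 nt of exon. In all, 248 peaks (3.70%, 3.26 to 4.18%) overlapped a peak on the opposite strand, in 129 pairs, and in 89 pairs the folds were within 1.5-fold of each other. Identical folds were listed for Eml5 and Zc3h14 (84.6 each). Whether the libraries kept strand is not given in the sources used here. Without strand, reads of the pair cannot be told apart, so each such value may count for either gene. Of the peaks with no partner on the other strand the highest fold was 1020.

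Peaks at transcript starts are shown by sequence, because the class alone does not say which 5' UTR peaks reach the cap. Of 5034 peaks in genes with a RefSeq start window, 435 (8.64%) overlapped the first 50 nt of the annotated transcript, and 372 of the 435 began within 50 nt of it. They were 219 of 392 5' UTR peaks (55.9%, 50.8 to 60.8%), 68 of 585 in other exons (11.6%), 143 of 2786 in CDS (5.13%) and 2 of 1263 in 3' UTRs. Of the 219 in 5' UTRs, 140 had more than 1 block, so their fold covers more than the start. The start regions of 7 genes with such a peak among the strongest of the list or of their class are printed below in 30 bases each, from RefSeq (GRCm38.p6) on the strand of the gene. The capital letter marks the annotated first base of the transcript.
Ube2l3: gatgcAttttgggaaagcagcagcaccaga
Nsa2: cggaaAgacgtcacggaactgctgtgcggc
Rab8b: tcgccAgaggccccccctccgcgctgcttt
Efemp1: ctcccTttttcctcctcctgtggctgctgc
Plaur: gtcagTctagagcagaggtgaaggaagaac
Col4a1: tccccTtggagacgccgcccgcgcactgcc
Zfp36l1: agcccGggagagtcagaaaggcgaggggcg
The first base is A in Ube2l3, Nsa2 and Rab8b, T in Efemp1, Plaur and Col4a1, and G in Zfp36l1. The window lies at chr16:17201468-17201497 for Ube2l3, chr13:97137902-97137931 for Nsa2, chr9:66919681-66919710 for Rab8b, chr8:11312802-11312831 for Col4a1 and chr12:80112989-80113018 for Zfp36l1, all on the minus strand. On the plus strand it lies at chr11:28853200-28853229 for Efemp1 and chr7:24462478-24462507 for Plaur. Folds were 502 for Efemp1, which encodes a fibulin of the extracellular matrix, 477 for the urokinase receptor gene Plaur, 448 for the basement membrane collagen gene Col4a1 and 285 for the mRNA decay factor gene Zfp36l1.

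An adenosine at the start was no commoner in genes with a start peak than among all genes. The annotated first base was A in 140 of 432 genes with a start peak (32.4%, 28.0 to 37.0%), beside 37.4% of 21262 coding start windows. It was G in 44.0% beside 39.3%, C in 14.4% beside 13.8% and T in 9.26% beside 9.59%. A start A that follows a C was found in 23.6% beside 22.7%. The letters GGACT, 1 form of DRACH, stood in the first 50 nt on the strand of the gene in 5.56% beside 5.86%, and their reverse complement AGTCC in 7.18% beside 5.02%. The coding windows include genes that stellate cells need not express, and the annotated start may differ from the start used in these cells. No genome of the files' build was used, so sequence inside the other peaks was not searched.

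The known mRNA target of METTL16 carried peaks in the cKO list. Mat2a, which encodes the S-adenosylmethionine synthetase, had 2 peaks in its 3' UTR, at folds of 43.0 (chr6:72432859-72433367) and 20.2 (chr6:72434174-72434563), both on the minus strand. Whether these peaks cover the hairpins that METTL16 methylates was not checked. Mettl16 itself had a 3' UTR peak of 12.1. Pcif1, Mettl5, Zcchc4 and the RNA Neat1 had no peak. Among small nuclear RNAs the list held 2 peaks, at 2.72 and 2.03, both on predicted genes. The nuclear RNA Malat1 had 4 listed peaks at 2 separate places, at folds of 7.85, 4.83, 1.89 and 1.85. The strongest of them carried a log10 p of -69400, the lowest given as a number, while 44 other peaks have an error in that cell. Across 6665 peaks with a log10 p, rho between fold and -log10 p was 0.59. Xist, the RNA of the inactive X chromosome, had 7 peaks from 75 to 6.62.

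Genes of the m6A machinery were among the marked transcripts. In the writer complex 4 of 8 genes had a peak (50%, 15.7 to 84.3%), beside 18.1% of all coding genes, which the interval includes. The adaptor Zc3h13 had peaks at 238, 3.71, 3.62 and 2.56, and the scaffold Virma at 60.1. The ubiquitin ligase gene Cbll1 had 26.8, and Rbm15b, which recruits the complex to RNA, 17.7 and 16.4. All 8 listed peaks were in CDS, and the 2 of Rbm15b overlap at 1 place. Of 14 readers and demethylases 7 had a peak (50%, 23.0 to 77.0%). The nuclear reader Ythdc1 had 2 peaks of 206 and 69.4 that spanned 5 and 7 exon blocks, above the cytoplasmic readers Ythdf3 at 30.5 and Ythdf2 at 21.0. Fmr1 reached 28.7, Hnrnpc 24.6 and Elavl1 5.88, and the demethylase gene Fto had a 5' UTR peak of 4.51.

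Gene lists were read against the whole list: 18.1% of 21896 RefSeq coding genes had a peak, and 16.5% of the 4300 genes with a peak reached a best fold of 50 or more. The share with a peak follows abundance as well as enrichment, and no list was tested. The genes of activated stellate cells had peaks far more often than all coding genes. Of 40 genes of the actin cytoskeleton and contraction 36 had a peak (90%, 76.3 to 97.2%), with a median best fold of 23.0. The tropomyosin genes Tpm3 (561), Tpm1 (399, 2.73 and 1.47) and Tpm2 (122 and 6.44) led, and the myosin light chain gene Myl9 reached 93.8. Of the activated stellate cell markers 21 of 30 had a peak (70.0%), with a median of 18.8 and 7 at 50 or more, among them the gelatinase gene Mmp2 at 107. Acta2, the smooth muscle actin of myofibroblasts, had 1 peak of 9.75.

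Matrix genes included strong peaks at both ends of the transcript. Matrix glycoproteins, proteoglycans and TIMPs had a peak in 24 of 36 genes (66.7%), with a median best fold of 25.6. Sparc, which binds collagen, had a 5' UTR peak of 235, periostin gene Postn peaks of 230, 51.6 and 27.6, and Timp2, an inhibitor of matrix metalloproteinases, 158, 24.3 and 10.5. Of 50 peaks in this group 18% were in 5' UTRs, and of 30 collagen peaks 20%, beside 7.56% of all peaks. The groups of markers and matrix share genes such as Sparc and Postn. Collagens had a peak in 12 of 44 genes (27.3%, 15.0 to 42.8%, which includes the 18.1% of all coding genes). Col4a1 had 448 in a 5' UTR peak of 5 blocks that reached its start. It also had 64.0 and 2.69 in the 3' UTR, and 3 CDS peaks of 3.23 to 3.39. Col1a1, the main fibrillar collagen of scars, had 56.1 in the 3' UTR and 27.2 in the 5' UTR. Laminin and integrin genes had a peak in 12 of 33, led by Itgb1 at 113.

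Genes of the quiescent, retinoid-storing state had many peaks of modest fold. They had a peak in 20 of 34 genes (58.8%, 40.7 to 75.4%), beside 21 of 30 activated markers (70.0%, 50.6 to 85.3%), and the difference was not tested. Their median best fold was 11.4 (7.36 to 20.6), and 1 of them reached 50. That gene was Hand2, with peaks of 78.0, 7.17 and 1.37. Colec11 followed at 41.6, Ecm1 at 34.2 and the lipid droplet gene Plin2 at 24.6. The interval of the median in the activated markers, 11.0 to 62.9, overlaps this one.

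Chromatin regulators had the highest median best fold among the lists of at least 20 members with at least 6 marked. They had a peak in 54 of 99 genes (54.5%), a median best fold of 34.8 (23.5 to 55.5), and 24 of the 54 (44.4%) at 50 or more. The rank was lost with the median fold over the peaks of a gene in place of the best, where chromatin regulators had 16.4, below Hippo genes at 18.3, translation factors at 16.9, TGF-beta and BMP genes at 16.8 and matrix glycoproteins, proteoglycans and TIMPs at 16.6. Of their 135 peaks 85.9% were in CDS and 66.7% spanned a junction. Beside Smarcc1 stood the remodeller gene Chd1 with 6 CDS peaks from 371 to 3.16, and Arid4b with 4 peaks at 224, 202, 110 and 41.6. Smarcc1, Chd1 and Arid4b each have long transcripts of many exons, and transcript length was not taken into account.

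Genes of RNA processing and protein quality control had median best folds of 12.5 to 20.8, around the 16.5 of all genes with a peak, and all their lists had a peak in more than 18.1% of members. The hnRNP and SR splicing factors had a peak in 18 of 33 genes with a median best fold of 20.8, led by Srsf4 at 264 and Hnrnpul1 at 169. DEAD and DEAH helicases had 27 of 53 and a median of 12.5, with Ddx46 at 89.7. Translation factors had 33 of 70 and 17.3, with Eif5b at 158 and 68.0, and Eif3j1 at 141 and 119. Chaperones had 35 of 78 and 15.1, with the ribosome-bound Dnajc2 at 181. Proteasome subunits had 23 of 49 and 18.2, with Psmd4 at 173. The Usp deubiquitinases had 13 of 56 (23.2%, 13.0 to 36.4%, which includes 18.1%) and 19.1, with Usp34 at 178 and 16.5. E2 enzymes had 16 of 31 and 15.6, and Ube2m, at 76.5, stood next after Ube2l3.

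Cytosolic ribosomal protein genes differed in class. They had a peak in 52 of 84 genes (61.9%), with a median best fold of 17.5. Of 67 peaks 47.8% were in other exons, 35.8% in CDS, 8.96% in 5' UTRs and 7.46% in 3' UTRs, beside 14.9%, 53.5%, 7.56% and 23.9% of all peaks. Rpl31 reached 489, Rpl35a 262, Rpl28 216 and Rps3 170. These genes have many near-identical pseudogenes, so the assignment of their reads is uncertain. Mitochondrial ribosomal protein genes had a peak in 27 of 78, with a median of 12.5 and no gene at 50. Nuclear genes of the respiratory chain and ATP synthase had 48 of 96 and 14.0, with Ndufa3 at 81.6 and Uqcrb at 80.4. On the mitochondrial chromosome 10 of 13 coding genes had a peak by the file's names. Their 13 peaks had a median fold of 3.28 (2.07 to 6.29), from 1.38 in mt-Cytb to 10.8 in mt-Atp8, below the lower quartile of the list in all but mt-Atp8.

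Signalling genes gave a mixed picture. The Hippo group, whose kinases restrain YAP, had a peak in 18 of 31 genes with a median best fold of 25.9, and 79.5% of its 39 peaks were in CDS. Its kinase genes Taok2 and Lats2 had best folds of 121 and 81.3, and the 5 listed peaks of Lats2 lie at 3 separate places under 2 Ensembl identifiers. TGF-beta and BMP signalling had 24 of 45 and a median of 20.2, and 43.2% of its 44 peaks were in 3' UTRs. Bmp2 reached 86.4 and the SMAD corepressor gene Skil 73.9. Receptor tyrosine kinase, PI3K and MAPK signalling had 24 of 63 and 14.1, led by Akt1 at 195 in its 3' UTR and Pik3r1 at 126 in its CDS. Immediate early and stress transcription factors had 23 of 35 and 21.7, and after Zfp36l1 came Jun at 104 and Cebpb at 99.3. Semaphorins, plexins, ephrins and Eph receptors had 10 of 52 (19.2%, 9.63 to 32.5%, beside 18.1% of all coding genes), with none at 50.

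Several large families had peaks less often than all coding genes. Solute carriers had a peak in 30 of 346 genes (8.67%, 5.93 to 12.1%), C2H2 Zfp genes in 45 of 394 (11.4%, 8.45 to 15.0%), Tmem genes in 27 of 235 (11.5%, 7.71 to 16.3%) and chemokines and their receptors in 4 of 59 (6.78%). Histone genes had 11 of 103 (10.7%, 5.45 to 18.3%, which includes the 18.1% of all coding genes), with H1f2 at 138. Single members were strong, such as Zfp292 at 202 and 48.0, Tmem176a at 228 and the glucose transporter gene Slc2a1 at 60.7. Other lists stood above 18.1%. Glycolysis genes had a peak in 11 of 18 (61.1%) with a median of 12.9. Rab GTPases had 16 of 59 (27.1%, 16.4 to 40.3%) and 18.8. Lysosomal genes had 15 of 57 (26.3%, 15.5 to 39.7%) and 19.5, led by Ctsd at 211. The Rab and lysosomal intervals include 18.1%. S100 and annexin genes had 12 of 25 (48.0%) and 21.6, led by S100a11 at 297. Redox defence genes had 17 of 50 (34.0%) and 17.7, with no gene at 50 and the highest, Gpx7, at 30.

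**Figure D5:**
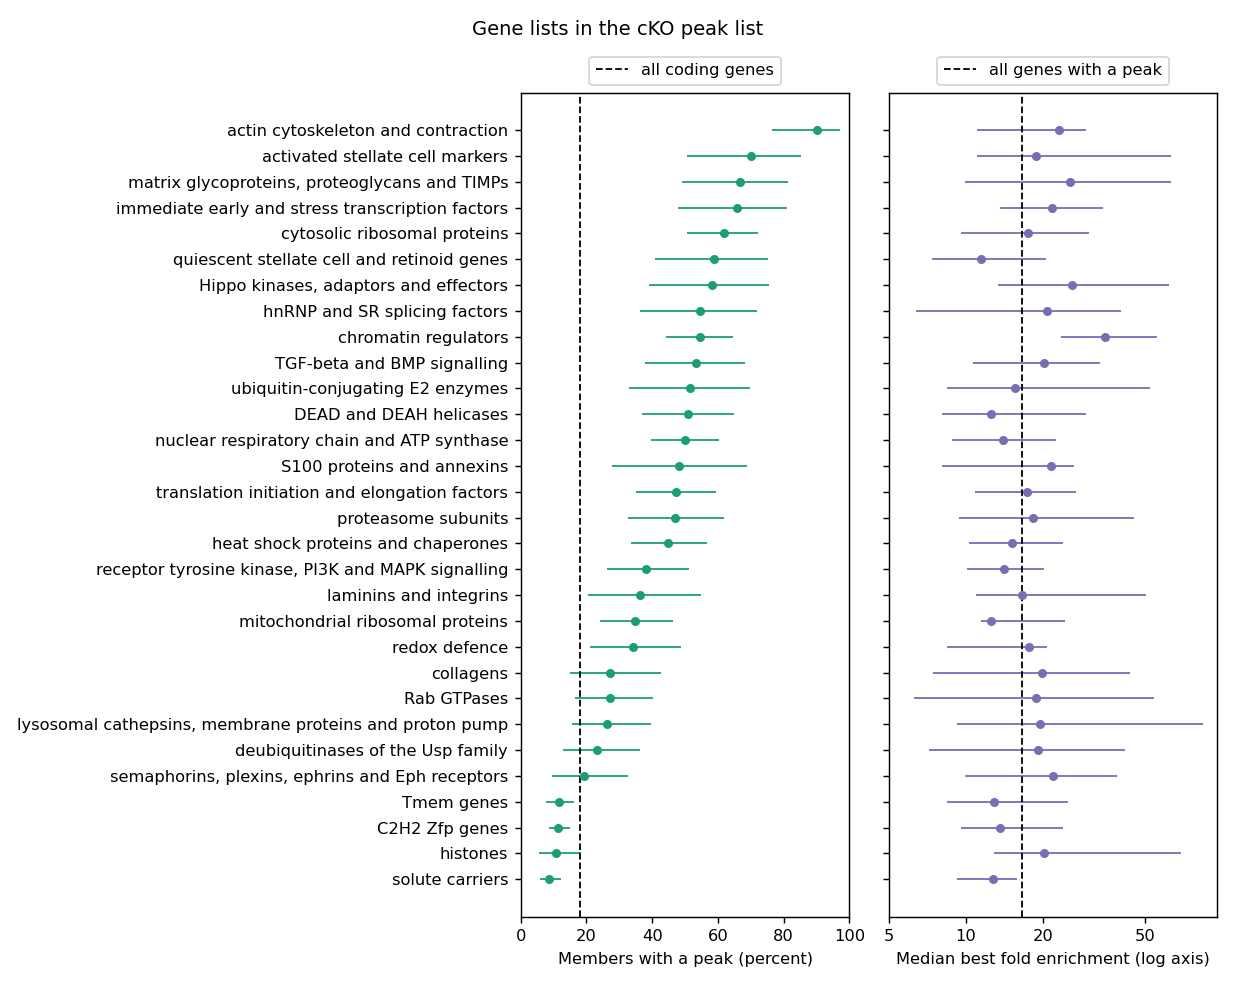
Percent of members with a peak in the Mettl3 cKO list (left, with exact 95% intervals) and median best fold enrichment of those with a peak (right, log axis, with the 95% interval of the median) for the gene lists of at least 20 members and at least 6 with a peak. Dashed lines mark 18.1% of all coding genes and a median of 16.5 over all genes with a peak; actin cytoskeleton genes stand highest on the left at 90% and chromatin regulators highest on the right at 34.8.

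Non-coding RNAs and pseudogenes held 300 peaks (4.47%, 3.99 to 4.99%). Processed pseudogenes had 102 peaks with a median fold of 9.38 (7.36 to 12.5), antisense RNAs 65 with 10.3, lincRNAs 40 with 13.8 and processed transcripts 24 with 8.09. Of the antisense RNA peaks 42 of 65 (64.6%) overlapped a peak on the other strand, as did 15 of 40 lincRNA peaks, beside 2.62% of peaks in coding genes. Xist had the strongest lincRNA peak at 75. Predicted genes reached 197 among processed pseudogenes and 121 among antisense RNAs. Rpl17-ps5, a ribosomal protein pseudogene, had 66.9, and its reads may belong to the parent gene. Mir8114, listed as a miRNA at 41.4, overlapped peaks of Teddm2 (292) and Glul (202), which encodes glutamine synthetase. Pcdhgb8 had 3' UTR peaks of 44.5 and 24.6, and whether their reads belong to this gene alone was not checked.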

How the data were processed

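Immunoprecipitated RNA was measured against input in 2 libraries each of cKO and control stellate cells, and the list of the cKO was used as the authors deposited it. Per the file headers it gives each peak a p-value, a log10 p read here as a score, and a fold enrichment read as a ratio. HISAT2, HOMER and the build mm10 are named, without roles, per the submitters' processing notes. The sources used here do not give the peak caller, its threshold or how replicates were pooled. The largest p was 0.046, and 44 log10 p cells held spreadsheet errors and were ranked as smallest p. Genes were joined by symbol to RefSeq (GRCm38.p6), with 4128 of 4300 names found, and 7 names had become dates. Overlap grouping and median intervals were tested on simulated data. Computation used Python 3.11.15, pandas 2.3.3, numpy 2.4.6, scipy 1.17.1 and matplotlib 3.10.9.

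The gene lists and the members were chosen with earlier results of these data known. Named genes were the 10 of highest fold, the 4 highest of each class and of non-coding genes, the 8 with most peaks, the 4 highest of each gene list, and genes of m6A enzymes and their known targets, predicted genes being passed over. Some genes that this rule takes are not reported here. Other genes named in the text (such as Acta2, Myl9, Eml5, Glul and mitochondrial genes) were chosen after their values were seen. Shares have exact 95% intervals. Stricter calls, overlapping peaks counted once, coding genes alone, outer span and the median fold per gene were tried as alternatives.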

Additional observations from a re-analysis of the deposited data

How the results depend on the processing

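No paired analysis was possible because the cKO list is 1 pooled call with no value per replicate, so leaving out a replicate was not possible either. Counting overlapping peaks once, also with 50% of both peaks required, and using Ensembl identifiers left the shares and medians of the whole list within their intervals, with 4166 and 4304 genes in place of 4300. With only peaks of log10 p of -10 or less, 2101 genes remained, 24.3% of them with more than 1 peak. The shares were then 58.6% in CDS, 19.9% in 3' UTRs and 58.1% across junctions, and the median fold was 36.6 in 5' UTRs, 30.5 in CDS, 31.2 in 3' UTRs and 31.6 in other exons, so the order of the classes by fold was not kept. Widths were 270, 330, 269 and 271 nt in that order of classes, and the best fold over all genes had a median of 36.4. With only folds of 10 or more, 3' UTRs made up 22.7%, junction peaks 52.1% and genes with more than 1 peak 28.0%. Widths were then 239, 270, 211 and 239 nt, and the median best fold was 24.6. With coding genes alone, CDS made up 55.9%, 3' UTRs 24.98%, other exons 11.1% and junction peaks 50.1%, and the other exon median fold was 13.6. Outer spans gave 459 nt in 5' UTRs, 1378 nt in CDS and 241 nt in other exons. The median fold in place of the best fold per gene gave 13.8 over all genes.

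Of 40 gene lists with a value, 24 had a median best fold above that of all genes. With log10 p of -10 or less 13 of 37 did, 10 of them among the 24. With folds of 10 or more 22 of 39 did, 18 of them among the 24, and with the median fold per gene 18 of 40 did, 14 of them among the 24. Taking start peaks by where they begin, an alternative chosen after seeing the data, left the share of start A at 32.4%. The planned search of motifs in whole peaks against their middle 100 nt was not run, since it needs a genome of the build. These shifts follow from fewer or other peaks being taken, and depth, unknown here, limits which transcripts could be called.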

Other observations

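Some peaks were listed on the Y chromosome. The translation factor gene Eif2s3y had a fold of 5.88, and Erdr1 had peaks of 37.5 and 21.0. Whether the reads of these peaks came from the Y chromosome alone was not checked. The list held peaks on Xist as well, and on the X chromosome 184 peaks had a median fold of 14.3 (11.8 to 16.7), beside 13.2 over the whole list. Tsix and Xist, which run across each other on opposite strands, shared places with equal folds of 8.09 and 6.62.

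The class of the peaks is given here for some further groups, with no test between them. Of 23 peaks on E2 enzymes 26.1% were in 5' UTRs and 34.8% in each of CDS and 3' UTR. Of 21 peaks on Usp deubiquitinases 81.0% were in CDS and 85.7% spanned a junction. Solute carriers and Rab GTPases had 48.7% of 39 peaks and 45.0% of 20 peaks in 3' UTRs, beside 23.9% of all peaks. Redox defence genes had 50% of 24 peaks in 3' UTRs, and mitochondrial ribosomal protein genes had 43.3% of 30 peaks there and none in 5' UTRs.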
